A study of Mus musculus with 16 samples.

Results

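The cathepsins are the main proteases of the lysosome, and 10 of their genes were followed here through mouse bone marrow cultures given an inhibitor of the chromatin reader BRD9 on the way to osteoclasts: Ctsk, Ctsa, Ctsb, Ctsc, Ctsd, Ctse, Ctsh, Ctsl, Ctss and Ctsz. They were taken by symbol from a count table of 21898 genes, and all 10 had enough reads to be tested among 11559 genes. The libraries came from bone marrow-derived monocytes (BMDMs) of C57BL/6 mice, all of them kept in M-CSF, the growth factor of the macrophage lineage. There were 4 groups of 4 libraries: MR + iBRD9, with RANKL (the cytokine that starts osteoclast formation) and the BRD9 inhibitor iBRD9; MR + vector, with RANKL and the vehicle, which the study calls vector; M + iBRD9, with the inhibitor and no RANKL; and M + vector, with neither. The induction medium held M-CSF at 50 ng/ml and RANKL at 100 ng/ml. The inhibitor was present for a day, so these are early cultures and not mature osteoclasts. No label says whether the libraries of a group came from separate mice or separate cultures, so the p-values measure only the spread between these libraries, which may be technical.

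Cathepsins are made as inactive proenzymes, tagged with mannose 6-phosphate in the Golgi, carried to the lysosome and activated there by acid and by other proteases. Most are cysteine proteases (B, C, H, K, L, S and Z), D and E are aspartic proteases and A is a serine carboxypeptidase. Cathepsin K is the collagenase that osteoclasts release onto bone, and its gene is the classic late target of NFATc1, MITF and PU.1 in that lineage. Cathepsin S is made by antigen-presenting cells and cleaves the invariant chain of MHC class II, and cathepsin C activates the granule serine proteases of neutrophils and cytotoxic cells.

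The stretches of DNA just before 4 of the start sites are shown because 3 of these genes (Ctsk, Ctss and Ctsc) had lower RNA in both iBRD9 groups than in the matching vector groups, and the fourth (Ctsd) had higher RNA in M + iBRD9 than in M + vector libraries. They are the 250 bases before each start site, from RefSeq on build GRCm38.p6, which is not the GRCm39 build of the count table. Capitals mark GAGGAA, a core bound by PU.1 (Ctsk, Ctss and Ctsc, as TTCCTC on the other strand), GAAA followed after any 2 bases by GAAA, the core of the interferon-stimulated response element (Ctss), and CACGTG, the E-box bound by MITF and its relatives (Ctsd).
Ctsk, chr3:95498960-95499209, plus strand: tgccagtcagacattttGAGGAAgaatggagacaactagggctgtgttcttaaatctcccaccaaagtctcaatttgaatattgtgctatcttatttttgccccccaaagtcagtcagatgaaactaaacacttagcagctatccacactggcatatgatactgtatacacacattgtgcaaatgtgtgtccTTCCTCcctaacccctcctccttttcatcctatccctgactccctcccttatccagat
Ctss, chr3:95526536-95526785, plus strand: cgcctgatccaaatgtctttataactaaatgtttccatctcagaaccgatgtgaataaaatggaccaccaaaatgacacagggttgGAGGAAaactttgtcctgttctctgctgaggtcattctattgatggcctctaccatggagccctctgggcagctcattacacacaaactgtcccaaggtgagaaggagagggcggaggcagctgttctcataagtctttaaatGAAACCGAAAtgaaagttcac
Ctsc, chr7:88277835-88278084, plus strand: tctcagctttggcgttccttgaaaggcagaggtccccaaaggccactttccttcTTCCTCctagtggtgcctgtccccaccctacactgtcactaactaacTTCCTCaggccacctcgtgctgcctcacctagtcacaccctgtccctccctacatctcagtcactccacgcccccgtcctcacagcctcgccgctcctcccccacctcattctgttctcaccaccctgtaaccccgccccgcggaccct
Ctsd, chr7:142387828-142388077, minus strand: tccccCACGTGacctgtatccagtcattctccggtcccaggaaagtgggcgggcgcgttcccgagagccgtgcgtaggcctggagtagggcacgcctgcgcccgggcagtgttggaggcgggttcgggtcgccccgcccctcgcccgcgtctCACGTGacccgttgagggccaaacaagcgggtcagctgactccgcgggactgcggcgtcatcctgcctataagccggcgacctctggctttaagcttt
Ctsk and Ctsc each held GAGGAA at 2 places and Ctss at 1, counting both strands, and 23.3% of the 32851 promoter windows in the table held it. The core of the interferon-stimulated response element occurred in Ctss alone among the matched cathepsins, 21 bases before the start site, and in 2.98% of all windows. CACGTG occurred at 2 places in Ctsd, and at 1 in Ctsl and in 1 of the windows of Ctsa, against 6.02% of all windows. In the Ctss window the GAGGAA match overlapped GGAAA, the core bound by NFAT, which 55.6% of windows held. On either strand GGAAA also occurred in the Ctsc, Ctsd and Ctsl windows and in 1 of the windows of Ctsa. The Ctsk and Ctsz windows did not hold it. Windows were found for 7 of the 10 genes, and not for Ctsb, Ctse and Ctsh. These matches are descriptions of letters and say nothing about whether a factor was bound.

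Total counts assigned to genes were between 15372775 and 18987926 per library, and mitochondrial genes took between 1.70% and 1.93% of them. All 12 macrophage markers had counts in the cultures, with summed levels of 22855 to 23640 TMM-normalized CPM (counts scaled to a common library size) in MR + iBRD9, 25469 to 26826 in MR + vector, 25632 to 29088 in M + iBRD9 and 24999 to 26776 in M + vector libraries. Lyz2 alone made up 63.6% to 77.2% of that sum, so the other markers are given by their calls beside the results. Markers of T and NK cells and of mast cells summed to no more than 5.1 CPM in any library, with Cd3d, Cd3e, Cd8a and Fcer1a at 0 throughout. The 12 neutrophil markers summed to 56.4 to 73.6 CPM in MR + iBRD9, against 84.7 to 104 CPM in MR + vector libraries. In the libraries without RANKL the neutrophil sum was 82.7 to 108 CPM in M + iBRD9 and 90.1 to 99.0 CPM in M + vector. Stromal and osteoblast markers, of which 11 of 12 had a count and Lum was at 0, summed to 10.0 to 20.5 CPM in MR + iBRD9, 10.7 to 13.3 in MR + vector, 20.3 to 24.9 in M + iBRD9 and 17.0 to 23.4 in M + vector libraries. Dendritic cell markers summed to 281 to 341 CPM in MR + iBRD9, 359 to 386 in MR + vector, 192 to 272 in M + iBRD9 and 244 to 297 in M + vector libraries. Only 1 of those 8 genes, Bst2, which interferon also induces, had enough reads to be tested, and its 305 CPM in MR + iBRD9, 368 in MR + vector, 216 in M + iBRD9 and 261 in M + vector libraries by mean made up nearly all of the sum. Erythroid and megakaryocyte markers, with Hbb-bt and Hba-a2 at 0 throughout, summed to 88.2 to 98.3 CPM in MR + iBRD9, 105 to 121 in MR + vector, 189 to 239 in M + iBRD9 and 201 to 231 in M + vector libraries. That sum was nearly all Pf4, the gene of platelet factor 4, with means of 92.7 CPM in MR + iBRD9, 115 in MR + vector, 214 in M + iBRD9 and 214 in M + vector libraries. In bulk RNA of this kind, fewer cells of a type and less RNA per cell cannot be told apart.

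To see which cathepsins these cells made most of, levels were compared per gene length, as FPKM. Ctsb was the highest in every group, at 2001 ± 16.2 FPKM in MR + iBRD9, 2037 ± 32.8 in MR + vector, 3244 ± 90.9 in M + iBRD9 and 2936 ± 36.1 in M + vector libraries (SD, n = 4 each). By raw count Ctsb, a broad lysosomal endo- and dipeptidase, was the single most counted gene of the table in all 8 libraries without RANKL, and stood in place 2 or 3 in the 8 libraries with RANKL. Ctss, Ctsd and Ctsz followed in FPKM, then Ctsl, Ctsa, Ctsc and Ctsh, each apart from its neighbours within every group but for Ctss and Ctsd. These 2 overlapped in M + vector libraries, with Ctss at 1344 ± 57.8 and Ctsd at 1333 ± 80.7 FPKM. Ctsd was above Ctss in M + iBRD9 libraries, with 1580 ± 98.3 against 1206 ± 41.3 FPKM, and below it in both RANKL groups. Ctsk and Ctse were at the bottom. Ctsk had 3.74 ± 0.452 FPKM in MR + iBRD9, 10.0 ± 0.531 in MR + vector, 1.83 ± 0.650 in M + iBRD9 and 4.17 ± 0.636 in M + vector libraries. Ctsb stood 535-fold above Ctsk in MR + iBRD9 and 203-fold above it in MR + vector libraries by mean FPKM, so the osteoclast collagenase was a minor cathepsin transcript of these early cultures even with RANKL. Ctse, an endosomal aspartic protease, overlapped Ctsk only in M + iBRD9 libraries, where it had 1.92 ± 0.272 FPKM.

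**Figure D1:**
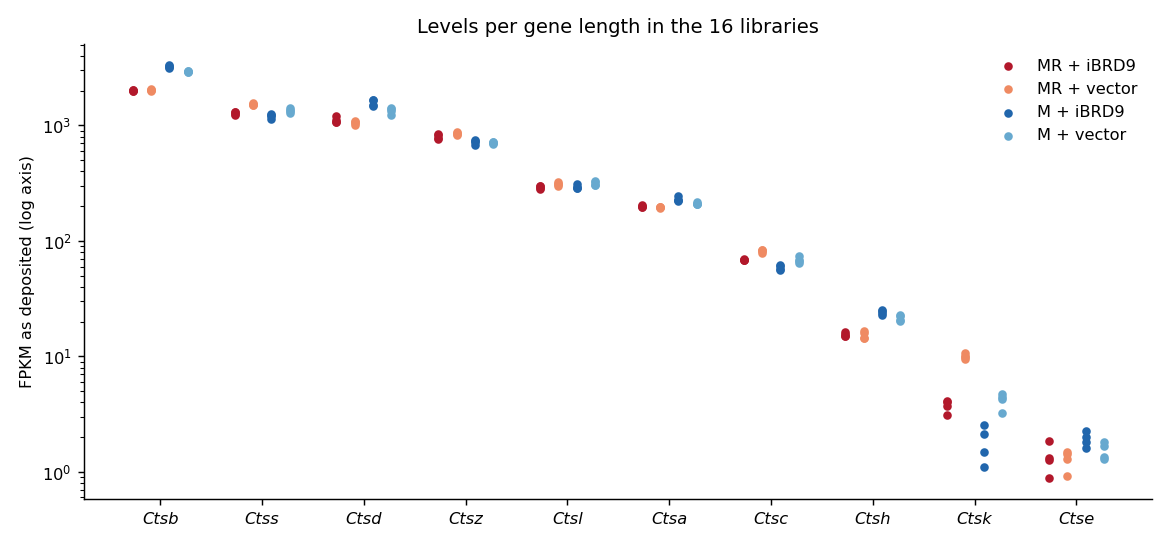
Deposited FPKM of the 10 cathepsin genes on a log axis, 1 point per library, 4 libraries a group, with MR + iBRD9, MR + vector, M + iBRD9 and M + vector from left to right for each gene. Ctsb lies between 2001 and 3244 FPKM by group mean and Ctsk between 1.83 and 10.0.

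Together the 10 genes took 2.09% ± 0.0290 of all counts in MR + iBRD9 libraries, 2.16% ± 0.0243 in MR + vector, 2.95% ± 0.0772 in M + iBRD9 and 2.73% ± 0.0278 in M + vector libraries (SD, n = 4 each). Ctsb alone took 1.21% ± 0.00982 in MR + iBRD9 and 1.23% ± 0.0199 in MR + vector, against 1.96% ± 0.0550 in M + iBRD9 and 1.78% ± 0.0219 in M + vector libraries. The other 9 genes together took 0.883% ± 0.0237 in MR + iBRD9, 0.929% ± 0.00868 in MR + vector, 0.984% ± 0.0331 in M + iBRD9 and 0.953% ± 0.0128 in M + vector libraries, so most of the fall in the family's share under RANKL was in Ctsb.

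The first comparison set MR + iBRD9 against MR + vector, which asks what the inhibitor did to cells responding to RANKL. Ctsk fell most. It had 6.11, 4.63, 5.49 and 6.01 CPM in the MR + iBRD9 libraries, against 14.4, 16.3, 14.8 and 14.95 CPM in the MR + vector libraries. Every inhibitor library was below every vector library, at 103, 75, 94 and 98 reads against 226, 251, 253 and 262 reads. The fitted log2 change was -1.44 ± 0.15 (SE, adjusted p = 1e-07, edgeR quasi-likelihood test with Benjamini-Hochberg adjustment over 11559 genes), a level 2.71-fold lower. Ctsk was the gene with the largest fall among the 237 genes called lower in this comparison. Leaving out any 1 of the 16 libraries gave a log2 change between -1.49 and -1.36. With the inhibitor, the Ctsk levels of RANKL cultures overlapped those of cultures that had no RANKL and no inhibitor, which had 4.96, 6.75, 6.53 and 7.23 CPM. The paper reports the other direction, more Ctsk mRNA and protein, in BMDMs lacking Brd9 and kept longer with RANKL. Those cells differ from these in both the means of blocking BRD9 and the time, and the part of each was not tested. Stromal cells can make Ctsk too, and the stromal marker sums of MR + iBRD9 and MR + vector libraries overlapped. The macrophage and neutrophil marker sums, and the sums that rest on Bst2 and on Pf4, were each lower in all 4 MR + iBRD9 libraries than in the 4 MR + vector libraries. Of the 12 macrophage markers 4 were called lower, with a median log2 change of -0.13. Of the 9 neutrophil markers tested 4 were called lower, with a median of -0.58, and 1 or 2 were without MR + vector replicate 1, 2 or 4 or MR + iBRD9 replicate 2 or 4, 6 without M + iBRD9 replicate 4 and 1 scaled by total counts. The part of these markers in the falls of Ctsk, Ctss and Ctsc was not tested.

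Ctss and Ctsc fell as well, by much less. Ctss had 1720, 1670, 1740 and 1659 CPM in MR + iBRD9 libraries, against 2051, 2101, 2024 and 2055 CPM in MR + vector libraries. The groups did not overlap, and the log2 change was -0.28 ± 0.04 (adjusted p = 3.7e-06, edgeR). Ctsc, the activator of granule proteases, had 391, 393, 393 and 388 CPM in MR + iBRD9 libraries and 482, 485, 456 and 472 CPM in MR + vector libraries. Again no library of one group reached the other, with a log2 change of -0.28 ± 0.04 (adjusted p = 6.3e-05). Of 7 listed genes of granule enzymes, most of them proteases that cathepsin C activates, 4 were tested, with a median log2 change of -0.67, and 2 of these 4 are also on the neutrophil list. In edgeR 0 were called (3 lower and 0 higher at an unadjusted p below 0.05, and 1 lower in DESeq2), but 2 were without M + iBRD9 replicate 4 and 1 without MR + vector replicate 3. Prtn3, the gene of proteinase 3, had 1.67 ± 0.152 CPM in MR + iBRD9 and 2.46 ± 0.507 CPM in MR + vector libraries and did not pass (adjusted p = 0.22, edgeR).

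**Figure D2:**
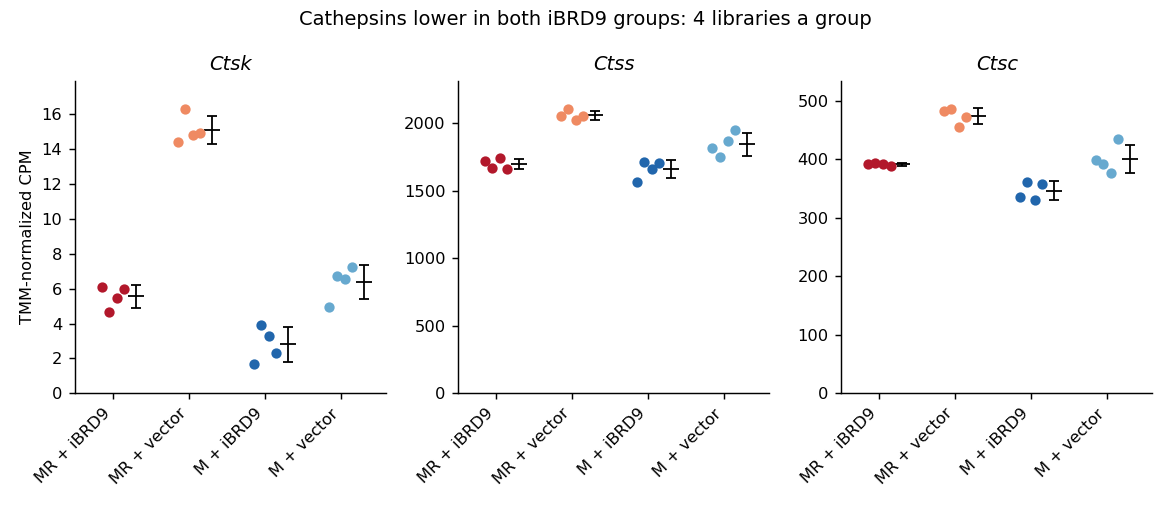
TMM-normalized CPM of Ctsk, Ctss and Ctsc in each library, with groups from left to right MR + iBRD9, MR + vector, M + iBRD9 and M + vector, points for the 4 libraries and black bars for mean and SD. In each panel both iBRD9 groups lie below their vector groups with no overlap, and Ctsk of MR + iBRD9 (4.63 to 6.11 CPM) overlaps M + vector (4.96 to 7.23 CPM).

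So 3 of the 10 cathepsins were called lower and 0 higher in MR + iBRD9 than in MR + vector libraries (0 higher at an unadjusted p below 0.05 in edgeR and 0 in DESeq2), where 2.05% of the genes tested were called lower and 0.718% higher. The median log2 change over the 10 was -0.07, against 0.00 over all genes tested. The 7 others did not pass the threshold. Ctsl had 1804 to 1918 CPM in MR + iBRD9 and 1931 to 2089 CPM in MR + vector libraries, with no overlap but a log2 change of only -0.11 ± 0.04 (adjusted p = 0.12, edgeR). It did pass without M + iBRD9 replicate 4 (adjusted p = 0.046) and in a fit to the compared groups alone (0.017). For Ctsb the 95% interval of the log2 change was -0.10 to 0.01, for Ctsd -0.03 to 0.15, for Ctsa -0.06 to 0.08 and for Ctsh -0.12 to 0.11. The interval for Ctsz was -0.18 to -0.03 (adjusted p = 0.17), and for Ctse, with 46 to 99 reads a library in MR + iBRD9 and 50 to 82 in MR + vector, it was as wide as -0.38 to 0.44.

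The same question was asked of cells without RANKL. Ctsk again fell, to 1.69, 3.93, 3.28 and 2.32 CPM in M + iBRD9 libraries, against 4.96, 6.75, 6.53 and 7.23 CPM in M + vector libraries. The groups did not overlap and the log2 change was -1.18 ± 0.18 (adjusted p = 5.5e-05, edgeR), a level 2.26-fold lower, in place 6 by size among the 431 genes called lower. The counts behind it were small, 28 to 70 reads in M + iBRD9 and 85 to 126 reads in M + vector libraries, and leaving out 1 library at a time moved the log2 change between -1.38 and -1.005. Ctsc had 336, 361, 330 and 358 CPM in M + iBRD9 libraries, against 398, 391, 377 and 435 CPM in M + vector libraries (log2 change -0.21 ± 0.04, adjusted p = 0.0015). Ctss had 1566, 1714, 1657 and 1704 CPM in M + iBRD9 libraries and 1814, 1750, 1865 and 1951 CPM in M + vector libraries (log2 change -0.15 ± 0.04, adjusted p = 0.0057). All 3 genes were lower in every M + iBRD9 library than in any M + vector library.

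Other members rose in these cells. Ctsd, the main lysosomal aspartic protease, had 3484, 3973, 3952 and 3656 CPM in M + iBRD9 libraries, against 3160, 3265, 3325 and 2914 CPM in M + vector libraries (log2 change 0.25 ± 0.04, adjusted p = 0.0003, edgeR). Ctsb had 19211, 20074, 19481 and 20843 CPM in M + iBRD9 libraries, against 17700, 17851, 17922 and 18346 CPM in M + vector libraries (log2 change 0.15 ± 0.03, adjusted p = 0.00069). Neither gene's groups overlapped. Ctsa, the serine carboxypeptidase that shields beta-galactosidase and neuraminidase in the lysosome, had 1051 to 1178 CPM in M + iBRD9 and 989 to 1024 CPM in M + vector libraries (log2 change 0.13 ± 0.03, adjusted p = 0.015). That call was lost without M + vector replicate 2 (adjusted p = 0.056), M + vector replicate 3 (0.073) or M + iBRD9 replicate 4 (0.058), and in a fit to the compared groups alone (0.089). Ctsh, an aminopeptidase, had 104 to 115 CPM in M + iBRD9 and 92.1 to 104 CPM in M + vector libraries, which overlapped, and its adjusted p of 0.048 passed the threshold only just. It did not pass when any of 12 of the 16 libraries was left out (adjusted p up to 0.19), namely M + vector replicates 1, 2 and 3, M + iBRD9 replicates 2, 3 and 4, MR + vector replicates 1, 3 and 4 and MR + iBRD9 replicates 1, 2 and 4. Nor did Ctsh pass with scaling by DESeq2 size factors (0.058) or total counts (0.051), or in a fit to the compared groups alone (0.088).

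Without RANKL, then, 4 of the 10 members were called higher and 3 lower in M + iBRD9 than in M + vector libraries, where 3.08% of the genes tested were called higher and 3.73% lower. The median log2 change was 0.08 over the members and 0.00 over all genes tested. Ctsl (log2 change -0.10, 95% interval -0.17 to -0.02, adjusted p = 0.10, edgeR) did not pass, though its adjusted p was 0.007 without M + iBRD9 replicate 4 and 0.042 in DESeq2. Ctse (interval -0.04 to 0.71) and Ctsz (interval -0.05 to 0.10) did not pass either. The stromal marker sums of M + iBRD9 and M + vector libraries overlapped, as did the neutrophil, macrophage, dendritic cell and erythroid marker sums. Bst2, the 1 dendritic cell marker tested, was called lower (log2 change -0.27), though not in every fit that left out 1 library. Of the 9 neutrophil markers tested 1 was called lower, with a median of -0.04, and that count stayed at 1 without any single library. Of the 12 macrophage markers 5 were called higher and 1 lower, with a median log2 change of 0.10. The 5 became 2 without M + vector replicate 3, and 3 without M + vector replicate 1, 2 or 4 or M + iBRD9 replicate 2, 3 or 4. The part of these markers in the rises of Ctsd and Ctsb and in the falls of Ctsk, Ctss and Ctsc was not tested.

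**Figure D3:**
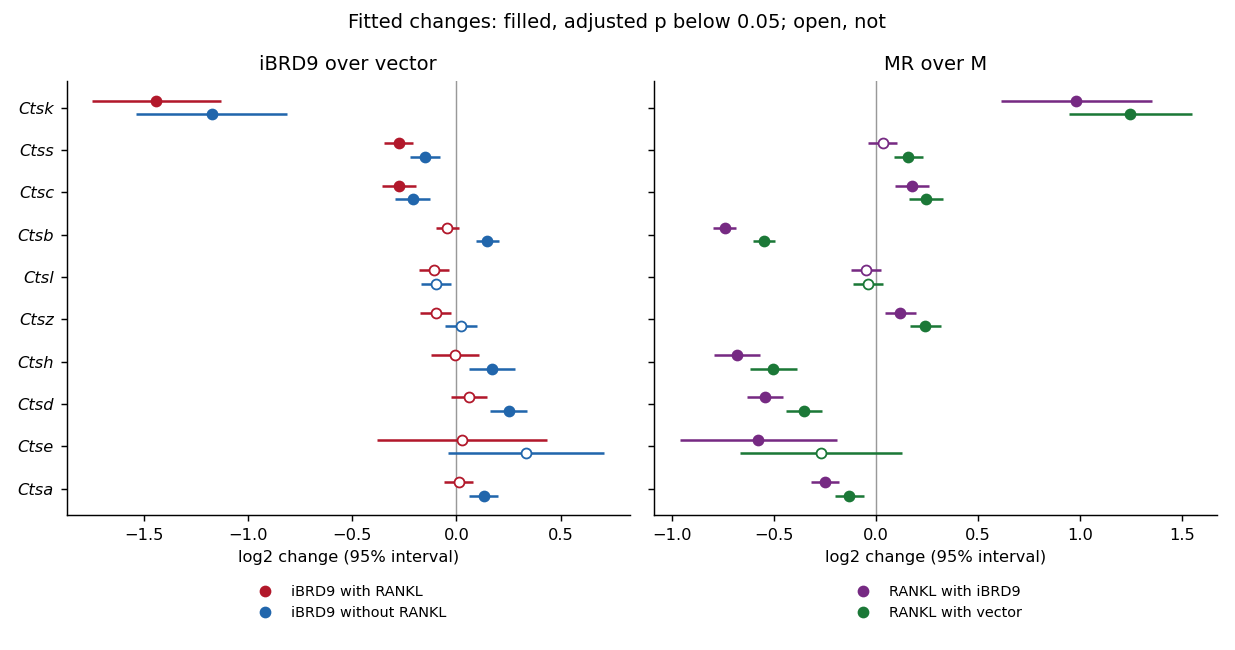
Fitted log2 changes of the 10 genes with 95% intervals, iBRD9 over vector on the left (red with RANKL, blue without) and MR over M on the right (purple with iBRD9, green with vector), filled points for adjusted p below 0.05 and open points for the rest. Ctsk has the largest change in all 4 comparisons, from -1.44 to 1.24.

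Whether RANKL altered the response to the inhibitor was tested as the difference between the 2 log2 changes. For Ctsk the response with RANKL minus that without was -0.26 ± 0.24 (95% interval -0.75 to 0.22, adjusted p = 0.69, edgeR), so a difference in fold was not called, and the interval leaves room for a sizeable one. For Ctss the difference was -0.13 (interval -0.23 to -0.03, adjusted p = 0.21) and for Ctsc -0.07 (interval -0.19 to 0.05, adjusted p = 0.67). Ctsb was the 1 member called, at -0.19 ± 0.04 (adjusted p = 0.0067), and 0 members had a positive difference that was called (0 at an unadjusted p below 0.05 and 0 in DESeq2), where 1.08% of the genes tested were called with a negative difference and 1.0% with a positive one. Its log2 change was -0.04 with RANKL and 0.15 without. Ctsd had an equal difference of -0.19 ± 0.06 with more spread (adjusted p = 0.094). Ctsd passed without M + iBRD9 replicate 1 (0.033), M + iBRD9 replicate 4 (0.038) or MR + iBRD9 replicate 3 (0.038). All 10 differences were negative, with a median of -0.15, against -0.01 over all genes tested. The 12 macrophage markers had a median difference of -0.25, and 6 were called with a negative one (3 without M + vector replicate 3 or MR + vector replicate 2). Their part in the Ctsb difference was not tested.

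**Figure D4:**
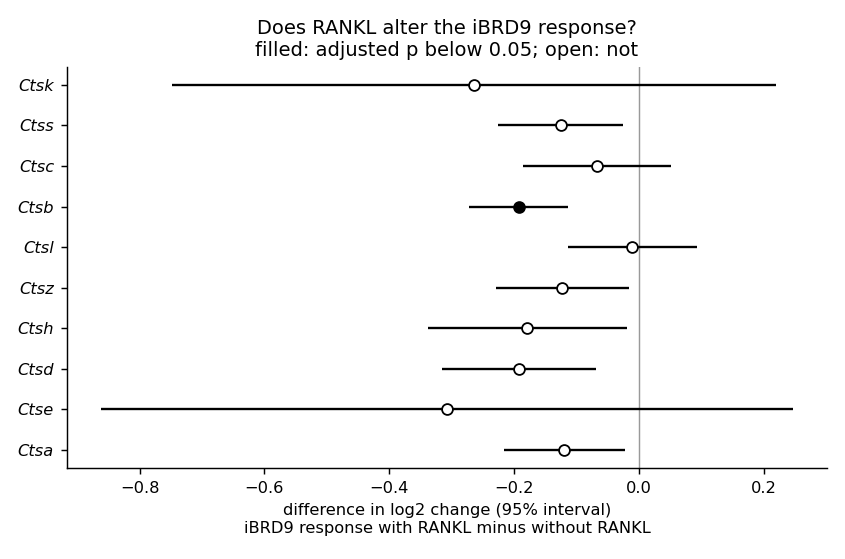
The log2 response to iBRD9 with RANKL minus the response without RANKL for each of the 10 genes, with 95% intervals, filled where the adjusted p is below 0.05. All 10 points lie left of 0, from -0.31 for Ctse to -0.01 for Ctsl, and Ctsb at -0.19 is the 1 filled point.

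The effect of RANKL itself was read from MR + vector against M + vector libraries. The family split. Ctsk rose, with the 14.4, 16.3, 14.8 and 14.95 CPM of the MR + vector libraries set against 4.96, 6.75, 6.53 and 7.23 CPM in M + vector libraries. The log2 change was 1.24 ± 0.15 (adjusted p = 2.1e-08, edgeR), a level 2.37-fold higher with no overlap. Ctsz, a carboxypeptidase, had 1183 to 1259 CPM in MR + vector and 1012 to 1057 CPM in M + vector libraries (log2 change 0.24 ± 0.04). Ctsc rose by the same 0.24 ± 0.04, with 456 to 485 CPM in MR + vector and 377 to 435 CPM in M + vector libraries. Ctss rose by 0.16 ± 0.04, with 2024 to 2101 CPM in MR + vector and 1750 to 1951 CPM in M + vector libraries. The stromal marker sum was lower, and the dendritic cell marker sum that rests on Bst2 higher, in all 4 MR + vector libraries than in the 4 M + vector libraries, and their part in these results was not tested.

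The other 4 called members fell, among them Ctsb, the most abundant cathepsin. Ctsb had 12352, 12530, 12034 and 12149 CPM in MR + vector libraries, against 17700, 17851, 17922 and 18346 CPM in M + vector libraries (log2 change -0.55 ± 0.03, adjusted p = 1.8e-17, edgeR). Ctsh had 64.6 to 75.1 CPM in MR + vector and 92.1 to 104 CPM in M + vector libraries, a log2 change of -0.50 ± 0.06. Ctsd had 2557, 2526, 2467 and 2367 CPM in MR + vector libraries, against 3160, 3265, 3325 and 2914 CPM in M + vector libraries (log2 change -0.35 ± 0.04). No group of these 3 genes overlapped its counterpart. Ctsa fell least, by 0.13 on the log2 scale (adjusted p = 0.0021), with 907 to 921 CPM in MR + vector and 989 to 1024 CPM in M + vector libraries. Macrophage markers fell alongside, with 9 of 12 called lower and 2 higher and a median log2 change of -0.35. Mrc1, the mannose receptor, had 498 ± 14.2 CPM in MR + vector and 2034 ± 65.6 CPM in M + vector libraries, and Csf1r, the receptor of M-CSF, had 1210 ± 36.0 CPM in MR + vector and 1510 ± 31.0 CPM in M + vector libraries. Pf4 was also lower in every MR + vector library. The part of these markers in the falls of the 4 cathepsins was not tested.

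In all, 4 members were called higher and 4 lower in MR + vector than in M + vector libraries, where 20.1% of the genes tested were called higher and 20.6% lower. The median log2 change was -0.09 over the members and 0.00 over all genes tested. Ctsl had a log2 change of -0.04 (95% interval -0.11 to 0.03), and Ctse one of -0.27 (interval -0.67 to 0.13), and neither passed.

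**Figure D5:**
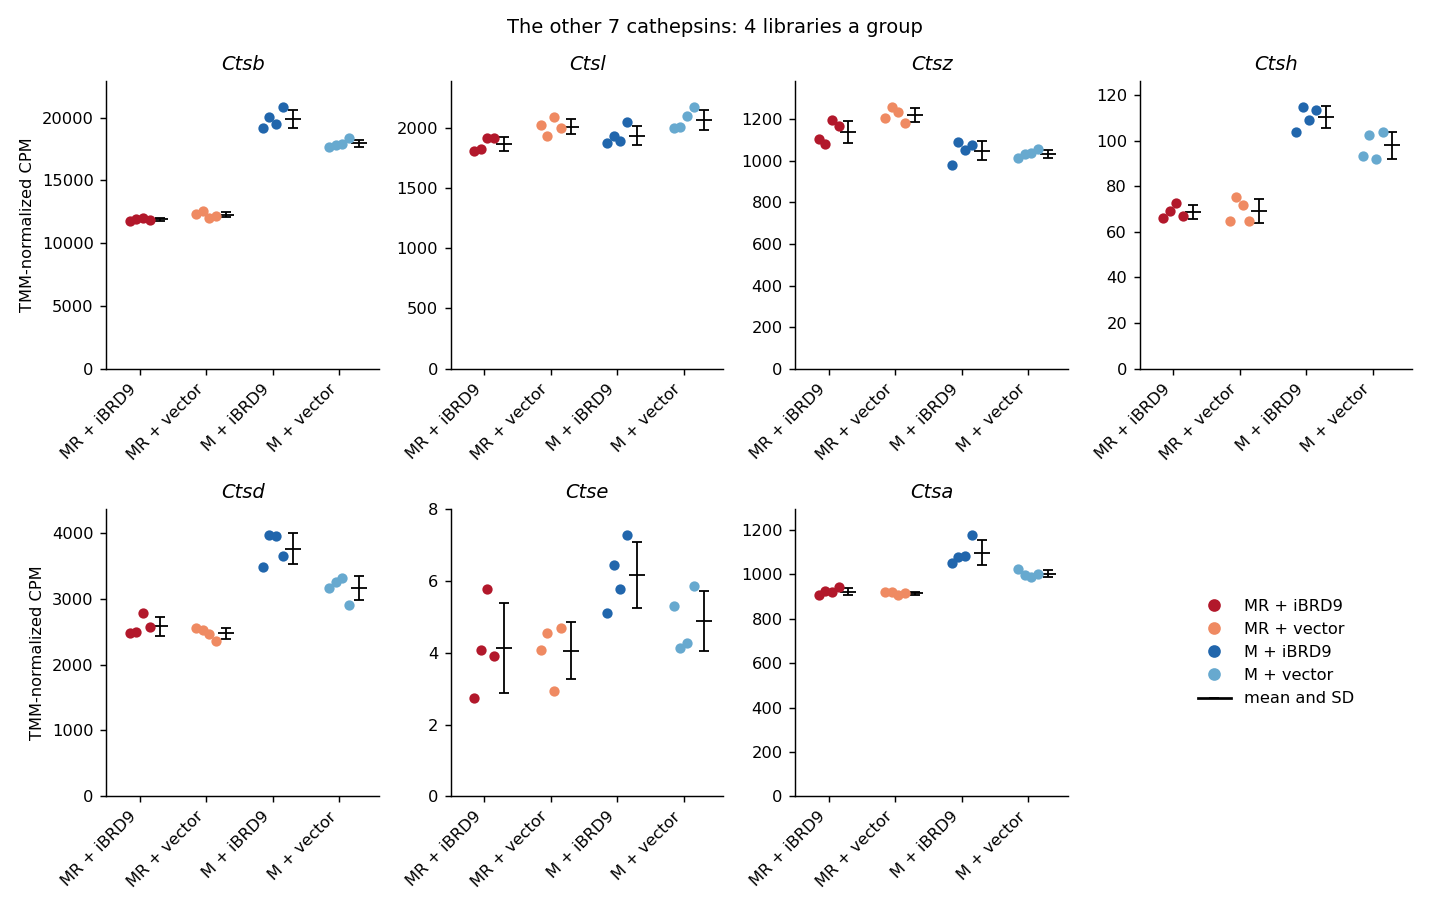
TMM-normalized CPM of the 7 other cathepsins in each library, with groups from left to right MR + iBRD9, MR + vector, M + iBRD9 and M + vector and black bars for mean and SD, every axis starting at 0. Ctsb, Ctsh and Ctsd are lower in both RANKL groups, as 11896 against 19902 CPM for the iBRD9 groups of Ctsb, and Ctsl stays within 1804 to 2172 CPM in all 16 libraries.

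Under the inhibitor the RANKL comparison was MR + iBRD9 against M + iBRD9. It shares no library with the comparison in vector cells. Ctsk rose here as well, with 6.11, 4.63, 5.49 and 6.01 CPM in MR + iBRD9 libraries and 1.69, 3.93, 3.28 and 2.32 CPM in M + iBRD9 libraries (log2 change 0.98 ± 0.18, adjusted p = 3.2e-05, edgeR). Ctsb had 11796 to 12041 CPM in MR + iBRD9 and 19211 to 20843 CPM in M + iBRD9 libraries, a log2 change of -0.74 ± 0.03. Ctsh (log2 change -0.68 ± 0.05), Ctsd (-0.54 ± 0.04) and Ctsa (-0.25 ± 0.03) fell too. Ctse, at 46 to 99 reads a library in MR + iBRD9 and 85 to 135 in M + iBRD9, had a log2 change of -0.58 ± 0.19 (adjusted p = 0.011) that did not pass without MR + iBRD9 replicate 1 (log2 change -0.42, adjusted p = 0.067), and its groups overlapped. Ctsc (0.18 ± 0.04) rose with no overlap. Ctsz (0.12 ± 0.04) rose too, but its groups overlapped, and its adjusted p reached 0.049 (edgeR) when single libraries were left out. Of the 12 macrophage markers 10 were called lower and 1 higher here, and of the 9 neutrophil markers tested 7 lower and 1 higher (median log2 change -0.72). The neutrophil sum and Pf4 were lower, and the dendritic cell sum that rests on Bst2 higher, in all 4 MR + iBRD9 libraries than in the 4 M + iBRD9 libraries. The part of these markers was not tested. Ctss had 1659 to 1740 CPM in MR + iBRD9 and 1566 to 1714 CPM in M + iBRD9 libraries, and its log2 change of 0.03 (95% interval -0.04 to 0.10) was not called. Counted together, 3 members were called higher and 5 lower, where 24.6% of the genes tested were called higher and 25.8% lower. The median log2 change was -0.15 over the members and -0.01 over all genes tested.

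By protease class, the 2 aspartic cathepsins, in effect Ctsd, took 19.4% ± 0.609 of the family's summed FPKM in MR + iBRD9 and 17.4% ± 0.391 in MR + vector libraries. They took 21.5% ± 1.04 in M + iBRD9 and 19.2% ± 1.17 in M + vector libraries. The 7 cysteine cathepsins took 77.2% ± 0.542 in MR + iBRD9, 79.4% ± 0.370 in MR + vector, 75.4% ± 0.940 in M + iBRD9 and 77.8% ± 1.18 in M + vector libraries (SD, n = 4 each). The serine protease Ctsa took the small remainder, 3.45% ± 0.0947 in MR + iBRD9 and 3.21% ± 0.0364 in MR + vector libraries.

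Ctsk and Ctss are next to each other. On build GRCm39 Ctsk (ENSMUSG00000028111) spans chromosome 3 positions 95406567 to 95416673 and Ctss (ENSMUSG00000038642) positions 95434097 to 95463714, both on the plus strand, with 17423 bases and no other gene of the table between them. The 2 genes shared the direction of change in the 3 comparisons where both were called, but not its size, since with RANKL the inhibitor's log2 change was -1.44 for Ctsk and -0.28 for Ctss. The rest lie elsewhere, with Ctsc and Ctsd on chromosome 7, Ctsa and Ctsz on 2, Ctsb on 14, Ctse on 1, Ctsh on 9 and Ctsl on 13. Ctsa overlaps Pltp and Neurl2, Ctsb overlaps Fdft1 and Ctsz overlaps Nelfcd, each on the opposite strand, and Ctsd overlaps Gm49369 on its own strand. These overlaps are of whole gene spans, not of exons. No source says whether the counting used strand or how it treated reads that overlap 2 genes. Some reads of Ctsa, Ctsb and Ctsz could therefore come from the neighbours or be left uncounted. For Ctsd that could happen with either setting, since Gm49369 is on the same strand.

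Genes tested were ranked by how closely their levels followed Ctsk over the 16 libraries, leaving out names of Gm and a number or ending in Rik. The closest were Ly6a (Pearson r = 0.953 on log2 CPM), Ifitm3 (0.951), Ifi211 (0.949), Olfr56 (0.943) and Ifi204 (0.942). Ifitm3 encodes a membrane protein that blocks virus entry, Ifi204 and Ifi211 belong to the interferon-inducible p200 family and Ly6a encodes the surface antigen Sca-1. Among the cathepsins, Ctsc came next, in place 6 of that ranking (0.933), and Ctss was in place 11 (0.902). The 16 points share 4 groups, so these values describe group means more than single libraries.

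Other genes that handle cathepsins were read from lists, whose counts for RANKL are to be read against the 20.1% of all genes tested that were called higher and the 20.6% called lower in MR + vector against M + vector libraries. Of 14 genes of cathepsin processing and sorting, 3 rose and 5 fell in MR + vector against M + vector libraries, with a median log2 change of -0.07, a count of rises close to that background. Lgmn, the asparaginyl endopeptidase that trims cathepsins to their mature chains, had 748 ± 29.4 CPM in MR + vector and 1446 ± 28.7 CPM in M + vector libraries (log2 change -0.95 ± 0.03, adjusted p = 1.9e-21, edgeR). M6pr and Igf2r, the receptors that carry tagged proenzymes to the lysosome, went the other way. M6pr had 636 ± 7.13 CPM in MR + vector and 393 ± 11.6 CPM in M + vector libraries, and Igf2r had 552 ± 11.4 CPM in MR + vector and 391 ± 5.08 CPM in M + vector libraries (SD, n = 4 each). In MR + iBRD9 against MR + vector libraries the log2 change was -0.07 for Lgmn and -0.04 for each receptor, and these did not pass. In M + iBRD9 against M + vector libraries Lgmn rose, with 1708 ± 35.5 CPM in M + iBRD9 and 1446 ± 28.7 CPM in M + vector libraries (log2 change 0.24 ± 0.03, adjusted p = 1.4e-05).

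Of 15 lysosomal partners of the cathepsins, 12 fell and 0 rose in MR + vector against M + vector libraries (0 rose at an unadjusted p below 0.05 in edgeR and 0 in DESeq2), with a median log2 change of -0.19, where 20.6% of all genes tested fell and 20.1% rose. Examples are Hexa, a subunit of beta-hexosaminidase, with 601 ± 25.5 CPM in MR + vector and 860 ± 28.0 CPM in M + vector libraries, and Psap, the precursor of the saposins, with 8379 ± 218 CPM in MR + vector and 9324 ± 217 CPM in M + vector libraries. Psap was the 1 partner called in MR + iBRD9 against MR + vector libraries, with 6907 ± 71.4 CPM in MR + iBRD9 and 8379 ± 218 CPM in MR + vector libraries (log2 change -0.28 ± 0.03, adjusted p = 1.4e-07, edgeR). Of 17 listed inhibitors of cathepsins 7 were tested, and 2 rose and 5 fell in MR + vector against M + vector libraries, with a median log2 change of -0.70, where 20.1% of all genes tested rose and 20.6% fell. Some that fell had few reads. Ctla2b had 0 CPM in MR + vector and 0.615 CPM in M + vector libraries. Cst7, named after its values were seen, had 1.24 CPM in MR + vector and 2.42 CPM in M + vector libraries. The list holds serpins beside the inhibitors of cysteine proteases, and 2 of those that fell were serpins, Serpinb6a (log2 change -0.70 ± 0.04) and Serpinb1a (-1.35 ± 0.35, named after its values were seen). Serpinb1a had only 0.964 CPM in MR + vector and 2.51 CPM in M + vector libraries. Of the 2 that rose, Csta2 did not pass without M + vector replicate 1 or MR + vector replicate 2 (adjusted p up to 0.054, edgeR). Cstb, the cytosolic cystatin B, rose to 552 ± 24.4 CPM in MR + vector, against 341 ± 21.2 CPM in M + vector libraries. Cst3, the secreted cystatin C, fell to 553 ± 16.9 CPM in MR + vector, against 672 ± 24.8 CPM in M + vector libraries. In MR + iBRD9 against MR + vector libraries 1 of the 7 inhibitors was called higher, Ctla2b, and 0 lower (0.718% and 2.05% of all genes tested). Ctla2b had 0.208 CPM in MR + iBRD9 and 0 CPM in MR + vector libraries (adjusted p = 0.036, edgeR). It did not pass without any 1 MR + vector library or without MR + iBRD9 replicate 1 or 3 (adjusted p up to 0.13).

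Genes of bone resorption give the setting for Ctsk. Of 15 listed 13 were tested, and 6 rose and 5 fell in MR + vector against M + vector libraries (20.1% and 20.6% of all genes tested), with a median log2 change of 0.11. In MR + iBRD9 against MR + vector libraries 1 rose and 1 fell (0.718% and 2.05% of all genes tested). Mmp9, the gelatinase that works beside cathepsin K on bone collagen, had 783 ± 20.3 CPM in MR + iBRD9 and 666 ± 26.1 CPM in MR + vector libraries, so under the inhibitor it rose (log2 change 0.23 ± 0.05, adjusted p = 0.002, edgeR) where Ctsk fell. Without RANKL it had 90.8 ± 7.15 CPM in M + iBRD9 and 73.1 ± 5.25 CPM in M + vector libraries, again a rise (0.31 ± 0.05, adjusted p = 0.00021). Acp5, the tartrate-resistant acid phosphatase of osteoclasts, had 17.0 ± 0.739 CPM in MR + iBRD9 and 14.4 ± 0.726 CPM in MR + vector libraries (log2 change 0.24 ± 0.09, adjusted p = 0.19). The gene of the list that fell was Mmp14, a membrane-bound collagenase, with 3.73 ± 0.585 CPM in MR + iBRD9 and 6.10 ± 1.03 CPM in MR + vector libraries (log2 change -0.71 ± 0.20, adjusted p = 0.041), the same direction as Ctsk. Mmp14 did not pass without MR + vector replicate 1, 2 or 4 or MR + iBRD9 replicate 2, 3 or 4 (adjusted p up to 0.20), nor scaled by total counts.

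Among 15 regulators of Ctsk transcription, 8 rose and 3 fell in MR + vector against M + vector libraries, with a median log2 change of 0.30, where 20.1% of all genes tested rose and 20.6% fell. Without single libraries 6 to 8 rose and 2 to 3 fell. Nfatc1, the master factor of osteoclasts, had 70.2 ± 3.97 CPM in MR + iBRD9, 63.5 ± 0.980 in MR + vector, 67.2 ± 4.3 in M + iBRD9 and 64.6 ± 3.86 in M + vector libraries and was called in no comparison, with adjusted p between 0.20 and 0.75 (edgeR). Tfeb was likewise called in none (adjusted p 0.26 to 0.86). Tfec is not among these 15, but on a list of 4 lysosomal transcription factors that also holds Mitf and Tfeb. Of those 4, 2 fell and 0 rose in MR + vector against M + vector libraries (20.6% and 20.1% of all genes tested). Mitf and Tfec had log2 changes of -0.17 and -0.20 in MR + vector against M + vector libraries (adjusted p = 0.018 and 0.019). Mitf also fell in MR + iBRD9 against M + iBRD9 libraries (-0.23, adjusted p = 0.001), where no single library or other setting changed the call, as did Tfec (-0.18, adjusted p = 0.027), which lost it without 6 of the 16 libraries (M + iBRD9 replicates 1, 3 and 4 and MR + iBRD9 replicates 1, 2 and 4), scaled by total counts and in a fit to those groups alone. In MR + vector against M + vector libraries Mitf did not pass without M + vector replicate 4, MR + vector replicate 1 or MR + vector replicate 3 (adjusted p up to 0.096), nor Tfec without M + vector replicate 1, MR + vector replicate 1 or MR + vector replicate 4 (up to 0.086). For the inhibitor with RANKL, 1 regulator was called higher and 1 lower (0.718% and 2.05% of all genes tested). Fosl2, an AP-1 subunit, had 42.4 ± 2.59 CPM in MR + iBRD9 and 31.6 ± 3.38 CPM in MR + vector libraries (log2 change 0.42 ± 0.08, adjusted p = 0.0015). Irf8, a repressor of osteoclast formation, had 119 ± 5.48 CPM in MR + iBRD9 and 134 ± 2.25 CPM in MR + vector libraries (log2 change -0.17 ± 0.04, adjusted p = 0.024). Irf8 did not pass without MR + vector replicate 1, 2 or 4 or MR + iBRD9 replicate 1 or 4 (adjusted p up to 0.13). For the inhibitor without RANKL, 2 of the 15 regulators were called higher and 2 lower (3.08% and 3.73% of all genes tested). Without single libraries 1 to 2 were called in each direction.

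Of 9 genes of the MHC class II pathway, in which cathepsin S acts, 2 rose in MR + vector against M + vector libraries, with a median log2 change of 0.20, a count close to the 20.1% of all genes tested. Cd74, the invariant chain that cathepsin S cleaves, had 32.9 ± 0.774 CPM in MR + iBRD9, 36.2 ± 0.997 in MR + vector, 30.3 ± 1.47 in M + iBRD9 and 26.4 ± 1.27 in M + vector libraries. It rose in MR + vector against M + vector libraries (log2 change 0.46 ± 0.06, adjusted p = 4.2e-07, edgeR), as Ctss did, and did not pass for the inhibitor with RANKL (log2 change -0.13, adjusted p = 0.34). Of 3 further cathepsin genes that were tested, Ctsf and Ctso fell and Ctsg did not pass in that comparison, and for the inhibitor 0 were called with or without RANKL (0 in DESeq2). At an unadjusted p below 0.05 in edgeR, 1 of the 3 was lower with RANKL and 1 higher without. Ctsf had 4.85 ± 0.591 CPM in MR + vector and 7.46 ± 1.21 CPM in M + vector libraries, and Ctso had 57.7 ± 2.25 CPM in MR + vector and 71.0 ± 4.12 CPM in M + vector libraries.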

How the data were processed

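RNA from BMDM cultures was sequenced by the authors as 16 libraries in 4 groups of 4. The deposited table holds read counts per gene, made by the authors with cutadapt, HISAT2, HTSeq and build GRCm39, and the FPKM the authors computed from those counts. Counts divided by gene length and library total gave nearly the same FPKM (ratio 0.99999). Strand setting and annotation release were not given in the sources used here. No per-sample column was left unmatched (0).

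Counts were fitted in edgeR 4.0.16 (R 4.3.3) with TMM factors, filterByExpr and the quasi-likelihood test, all 16 libraries in 1 model of 4 groups with 12 residual degrees of freedom. Calls are Benjamini-Hochberg adjusted p below 0.05 over 11559 genes. CPM are TMM-normalized, and log2 CPM for correlations used a prior count of 2. FPKM and shares were described without a test. Replicates of a group were compared as raw counts, and no pair agreed within sampling noise. Their difference, as chi-square per degree of freedom, ran from 2.81 to 11.3 over 24 pairs. It was largest for M + iBRD9 replicate 4, at 10.2, 11.3 and 7.37 against replicates 1, 2 and 3 of its group. The depth, 15372775 to 18987926 counts, leaves Ctsk with 28 to 262 reads a library, and its changes had larger standard errors than those of the other members except Ctse.

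The cathepsins and the lists were chosen with earlier results of these data known. All 10 members are named. Of each list, up to 3 called genes a direction with the smallest p, and Nfatc1, Mitf, Tfeb, Tfec, Acp5, Mmp9, Lgmn, Cst3, Cstb and Irf8 in any case, could be named, with some left out. The 5 genes most like Ctsk, leaving out Gm and Rik names, could be named as well. Alternatives were DESeq2 1.42.0, other scaling, other filters, fits to the compared groups alone, a replicate block and leaving out each library. Promoter windows came from RefSeq, build GRCm38.p6.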

Additional observations from a re-analysis of the deposited data

Results flagged for a closer look

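Differences in the response to iBRD9 between cultures with and without RANKL passed the threshold for 1 of the 10 cathepsins and for 7 of 80 other genes tested on the pathway lists (edgeR, adjusted over 11559 genes). Of those 80, 7.5% had a negative difference that was called and 1.25% a positive one, against 1.08% and 1.0% of all genes tested. Values are the log2 change with RANKL minus that without. Ctsb had -0.19 (adjusted p = 0.0067), staying called in every fit that left out 1 library, with adjusted p up to 0.034. Lgmn, its processing protease, had -0.31 (adjusted p = 0.00034), Plekhm1, a lysosome adaptor of osteoclasts, -0.36 (0.0078) and Fosl2 0.58 (0.0078), and these 3 also stayed called without any 1 library. Irf8 had -0.25 (0.022) and was not called without M + vector replicate 2 or 4, M + iBRD9 replicate 2, MR + vector replicate 2 or MR + iBRD9 replicate 4 (adjusted p up to 0.079). Tfe3 had -0.21 (0.045), Psap -0.16 (0.043) and Cd74 -0.33 (0.041). Each of these 3 was lost when most single libraries were left out, 13 of 16 for Tfe3 (all but M + iBRD9 replicates 1 and 4 and MR + iBRD9 replicate 3; up to 0.11), 14 for Psap (all but M + iBRD9 replicates 1 and 4; up to 0.14) and 13 for Cd74 (all but M + vector replicate 1, M + iBRD9 replicate 4 and MR + vector replicate 1; up to 0.11). No cathepsin had a library that stood apart from the other 3 of its group by Dixon's test in any of the 40 groups of values examined, where chance marks about 1 group in 20.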

How the results depend on the processing

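Of 1190 repeated values for the 50 member comparisons, 1143 kept their direction and their side of the threshold, 20 lost a call, 12 gained one and 15 turned direction, none of these 15 for a value that was called. Those that turned lay near 0 in the main fit, from -0.011 to 0.028, and Ctse, with few reads, moved furthest from there. Scaled by total counts, Ctsh with RANKL gave 0.012 and the Ctsl interaction 0.013 (0.0023 with no filter). Without single libraries the log2 change for iBRD9 ran from -0.18 to 0.18 for Ctse and -0.038 to 0.035 for Ctsh with RANKL and from -0.0020 to 0.052 for Ctsz without RANKL, and the Ctsl interaction from -0.029 to 0.029. The cause was not tested. The members called in the interaction numbered 1, against 2 with no filter and 2 with the replicate block (Ctsd added), and 1 to 2 without single libraries. Genes called numbered 320 for iBRD9 with RANKL, 499 in a fit to those groups alone, and 199 to 411 without single libraries (200 without MR + vector replicate 1, 199 without 2, 207 without 4, 205 without MR + iBRD9 replicate 4). They numbered 787 for iBRD9 without RANKL, 452 in a fit to those groups alone and 463 to 1104 without single libraries (511 without M + vector replicate 3, 483 without 4, 463 without M + iBRD9 replicate 2). In the interaction they numbered 241, against 388 with no filter, 376 in DESeq2, and 73 to 541 without single libraries (102 without M + vector replicate 3, 123 without M + iBRD9 replicate 2, 541 without M + iBRD9 replicate 4, 73 without MR + vector replicate 2, 158 without 4, 73 without MR + iBRD9 replicate 4).

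Scaling by total counts gave 106 genes higher and 169 lower for iBRD9 with RANKL, against 83 and 237 with TMM, and 189 and 92 in the interaction, against 116 and 125 (228 and 160 with no filter). The deviations of samples with the same replicate number correlated at -0.014 to 0.14 (2 of 16 above 0.1) and those with other numbers at -0.10 to 0.074 (0 of 48), and not every library correlated best with its own number, so the numbers were not taken as pairs. With the replicate number as a block 421 genes were called in the interaction, 417 and 1025 for iBRD9 with and without RANKL and 4924 and 5999 for RANKL with vector and with iBRD9. Under that block Ctsl was called in both iBRD9 comparisons (adjusted p = 0.036 and 0.039). Scaling by total counts called Ctss in MR + iBRD9 against M + iBRD9 libraries (0.048). Ctsk and Ctse, with the fewest reads of the 10 members, had the widest interaction intervals, and the parts of depth and of spread between libraries in this were not separated.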
